A study of Mus musculus with 8 samples.

Results

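The 10 genes described here, Col1a1, Col1a2, Col3a1, Col5a1, Col5a2, Col6a1, Col6a2, Col6a3, Col12a1 and Col14a1, encode the fibre-forming, fibril-associated and pericellular collagens found in and around cartilage. The set was chosen with earlier results of these data known, and its genes were taken by symbol from the 52325 gene identifiers of each library, which include 44 collagen genes. All 10 passed the filter on low values, at least 0.5 TPM (a transcript abundance scaled by transcript length and by library total) in at least 4 of the 8 libraries, which left 17177 genes. RNA came from costal (rib) chondrocytes of C57BL/6J mice 7 days after birth, released from the cartilage with collagenase. Of the 8 libraries, 4 were labelled wild-type and 4 Mir140-null. Mir140, the gene of the cartilage microRNA miR-140, had been deleted with CRISPR/Cas9 in founders of mixed C57BL/6 and CBA/ca background, which were then backcrossed to C57BL/6J. Wild-type and null lines both descended from crosses of heterozygous mice. Poly(A) RNA was sequenced with a strand-specific kit. Nothing in the labels says whether each library came from a single animal, so the p-values below measure the spread between these libraries. The labels give a lower bound on reads that is the same for all libraries, but no total for each. TPM keeps no read counts, and the depth of a given library is unknown.

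Collagens are trimers of chains that wind into a triple helix. Type I, with chains from Col1a1 and Col1a2, is the main fibre collagen of bone, tendon and perichondrium, the sheath around cartilage, while cartilage itself is built on type II fibrils from Col2a1. Type III, from Col3a1, assembles into the same fibres as type I, and type V, from Col5a1 and Col5a2, starts the fibrils and limits their width. Types XII and XIV, from Col12a1 and Col14a1, attach to the surface of fibrils. Type VI differs from all of these. Its chains from Col6a1, Col6a2 and Col6a3 form beaded filaments that surround each chondrocyte as a pericellular matrix.

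Before the collagens, the labels and libraries were checked. Col2a1, the defining gene of chondrocytes, ranked 1 by TPM in each of the 8 libraries. Mir140 itself was listed at 0 in 7 libraries, all wild-type ones among them, while the library labelled Mir140-null replicate 2 gave 8.86 TPM, so the poly(A) values give no check of the deletion and genotypes are those of the labels. The mice were genotyped by PCR and sequencing. The miR-140 strands were also measured by qRT-PCR in rib chondrocyte RNA samples, several of which were then sequenced. These files do not hold those data. Wwp2, the ubiquitin ligase gene that hosts Mir140 in an intron, was at 353, 459, 332 and 378 TPM in wild-type replicates 1 to 4 and 261, 349, 394 and 358 TPM in Mir140-null replicates 1 to 4. Its groups overlapped and it was not called (log2 fold change -0.16 ± 0.15, limma adjusted p = 0.487; without replicates 1 and 2, -0.01 ± 0.15 and 0.982). The libraries labelled Mir140-null replicates 1 and 2 stood apart from the other 6. Their file headers carry the numbers 23 and 24, against 31 and 32 for Mir140-null replicates 3 and 4 and 29, 33, 34 and 35 for wild-type replicates 1 to 4. No source used here says what these numbers mean, and whether they mark a separate preparation was not tested. The 2 libraries held 15800 and 16056 genes at 0.5 TPM or more, against 17435 and 16991 in Mir140-null replicates 3 and 4 and 17128, 17950, 17826 and 17766 in wild-type replicates 1 to 4. Both libraries lay below each of the other 6 for 3622 of the 17177 tested genes (21.1%) and above each of them for 2233 (13.0%). Among the collagens, these counts were 7 of 10, all but the collagen VI genes, and 0 of 10. Results are therefore given with all 8 libraries and without these 2, a choice made after the values were seen.

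Across all tested genes, limma called 1797 genes up in Mir140-null libraries (10.5%) and 1100 down (6.40%) at an adjusted p under 0.05. With median-ratio scaling between libraries the calls were 1368 up and 1320 down. With 1 library left out, the number of genes called up was 1123 without Mir140-null replicate 1, 779 without Mir140-null replicate 2, and 1035, 793 and 879 without wild-type replicates 1, 3 and 4. The number called down was 585 and 423 without Mir140-null replicates 1 and 2 in turn, and 665, 662, 440 and 419 without wild-type replicates 1 to 4 in turn. Without both Mir140-null replicates 1 and 2, 357 genes were up (2.08%) and 210 down (1.22%). Of the 10 collagens, limma called 3 up, the 3 chains of collagen VI, and 0 down, with 3 up and 1 down, Col12a1, at an unadjusted p under 0.05, against 19.0% up and 14.9% down of all tested genes. All 4 Mir140-null libraries lay above all 4 wild-type libraries for the same 3 genes, against 2703 of all tested genes (15.7%), and below them for Col12a1, against 1753 (10.2%). Without Mir140-null replicates 1 and 2, limma called 0 collagens up and 0 down, with Col6a2 and Col6a3 up and Col12a1 down at an unadjusted p under 0.05, against 16.5% up and 8.44% down of all tested genes. The median log2 fold change was -0.84 over the 10 collagens, 0.72 over the collagen VI genes, -1.31 over the other 7 and -0.01 over all tested genes. Without the same 2 libraries these medians were 0.09, 0.70, 0.04 and 0.07.

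Collagen VI rose in the Mir140-null libraries. Col6a3 (ENSMUSG00000048126, chr1:90765923-90843971, minus strand), the long chain that gives the filament its variable parts, was at 362, 540.2, 442 and 467 TPM in wild-type replicates 1 to 4 and 988, 794, 749.9 and 942 TPM in Mir140-null replicates 1 to 4. Every Mir140-null library was higher than every wild-type library, by a log2 fold change of 0.94 ± 0.15 (SE) on log2(TPM + 1), the scale of all fold changes here (limma adjusted p = 0.00882). Col6a2 (ENSMUSG00000020241, chr10:76595762-76623630, minus strand), a short chain, was at 262, 391, 339 and 348 TPM in wild-type replicates 1 to 4 and 586, 533, 494 and 586 TPM in Mir140-null replicates 1 to 4. These groups did not overlap either, and the log2 fold change was 0.72 ± 0.13 (limma adjusted p = 0.0139). Col6a1 (ENSMUSG00000001119, chr10:76708792-76726168, minus strand), the other short chain, was at 412, 597, 514 and 555 TPM in wild-type replicates 1 to 4 and 759, 710.1, 619 and 751 TPM in Mir140-null replicates 1 to 4. Wild-type replicate 2 came closest to the Mir140-null range, at 597 against 619 TPM, and the log2 fold change was 0.46 ± 0.13 (limma adjusted p = 0.0490). The share of TPM from mitochondrially encoded genes also split the groups, at 4.06, 4.94, 6.98 and 5.0% in wild-type replicates 1 to 4 and 8.80, 8.41, 10.1 and 8.55% in Mir140-null replicates 1 to 4. Scaled to a total over nuclear protein-coding genes, which leaves that share out, the log2 fold changes were 0.96 for Col6a3, 0.74 for Col6a2 and 0.47 for Col6a1 (limma adjusted p = 0.00748, 0.0116 and 0.0382). The nuclear protein-coding total was 62.75, 64.16, 61.28 and 63.52% of TPM in wild-type replicates 1 to 4. In Mir140-null replicates 1 to 4 it was 61.76, 63.53, 60.55 and 63.24%. These ranges overlapped, so this scaling could move the values little and gives no test of the mitochondrial share. The part of that share in the collagen values was not tested. In bulk RNA, more cells of a type and more RNA per cell cannot be told apart, nor can fewer cells and less RNA.

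The size of the collagen VI change did not rest on the libraries that stood apart. When Mir140-null replicates 1 and 2 were left out, the log2 fold changes were 0.91 ± 0.18 for Col6a3, 0.70 ± 0.18 for Col6a2 and 0.41 ± 0.17 for Col6a1. With 6 libraries the limma adjusted p was 0.0575, 0.0849 and 0.212, none under 0.05. Among 19 alternative settings, Col6a3 was called in 18 and Col6a2 in 17. Col6a1 was called in 5 of the 19. Its limma adjusted p was 0.0797, 0.0502, 0.103 and 0.0856 without wild-type replicates 1 to 4 in turn, and 0.105, 0.105 and 0.0947 without Mir140-null replicates 1, 2 and 4 in turn. The call of Col6a1 was also lost with a pseudocount of 0.1, no filter, median-ratio scaling, sample weights and 1 factor of unwanted variation from the least changed genes (limma adjusted p 0.0509 to 0.145). The 1 further setting that ended the calls of Col6a1 and Col6a2 is given with the other alternatives at the end.

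**Figure D1:**
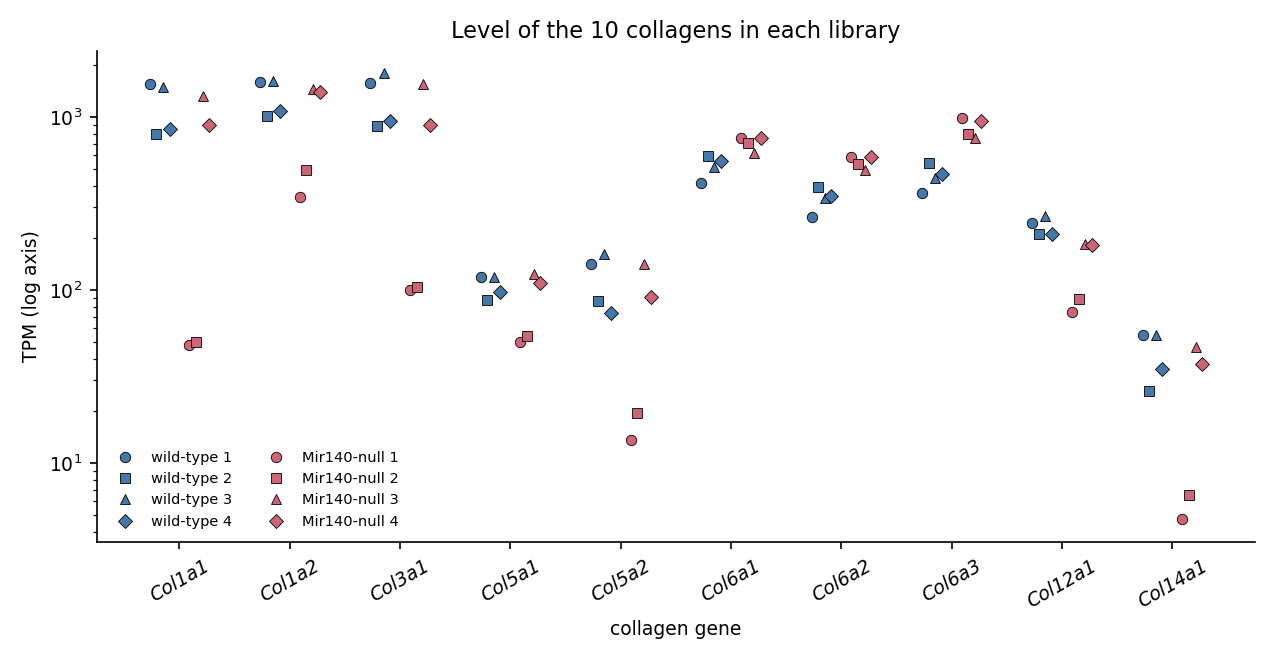
TPM (log axis) of the 10 collagen genes in each of the 8 libraries, with wild-type in blue, Mir140-null in red and a symbol for each replicate number. Mir140-null replicates 1 and 2 lie below all other libraries for the 7 genes outside collagen VI, and all 4 Mir140-null libraries lie above the wild-type libraries for Col6a1, Col6a2 and Col6a3.

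Type I and type III collagen, the main fibre collagens, were low in the libraries labelled Mir140-null replicates 1 and 2 and within the wild-type range in replicates 3 and 4. Col1a1 (ENSMUSG00000001506, chr11:94936224-94953042, plus strand), the alpha 1 chain of type I, was at 1544, 793, 1483 and 856 TPM in wild-type replicates 1 to 4 and 47.8, 50.1, 1326 and 898 TPM in Mir140-null replicates 1 to 4. Its groups overlapped, and the highest and lowest Mir140-null libraries differed 27.7-fold, against 1.95-fold among wild-type libraries. Col1a1 was not called (log2 fold change -2.26 ± 1.12, limma adjusted p = 0.197; without replicates 1 and 2, -0.03 ± 0.35 and 0.966). Col1a2 (ENSMUSG00000029661, chr6:4504814-4541544, plus strand), the alpha 2 chain of type I, was at 1585, 1013, 1605 and 1074 TPM in wild-type replicates 1 to 4 and 343, 493, 1449 and 1383 TPM in Mir140-null replicates 1 to 4. Replicates 3 and 4 again lay in the wild-type range, the others below it, and the spread among Mir140-null libraries was 4.22-fold, smaller than that of Col1a1. Col1a2 was not called (log2 fold change -0.76 ± 0.48, limma adjusted p = 0.30; without replicates 1 and 2, 0.13 ± 0.23 and 0.761). Col3a1 (ENSMUSG00000026043, chr1:45311538-45349706, plus strand), the only chain of type III, was at 1562, 880.1, 1791 and 944 TPM in wild-type replicates 1 to 4 and 100, 104, 1554 and 901 TPM in Mir140-null replicates 1 to 4. It stood with Col1a1 in having a pair of very low libraries, a 15.5-fold spread among Mir140-null libraries and no call (log2 fold change -1.82 ± 0.91, limma adjusted p = 0.197; without replicates 1 and 2, -0.06 ± 0.38 and 0.940).

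Type V collagen showed the same split between libraries, less so in Col5a1. Col5a1 (ENSMUSG00000026837, chr2:27886425-28039514, plus strand), the alpha 1 chain that starts the fibril, was at 118, 87.5, 119 and 97.5 TPM in wild-type replicates 1 to 4 and 49.9, 54.4, 123 and 109 TPM in Mir140-null replicates 1 to 4. Mir140-null replicate 3 was the highest of all 8 libraries and replicate 1 the lowest, and Col5a1 was not called (log2 fold change -0.42 ± 0.31, limma adjusted p = 0.365; without replicates 1 and 2, 0.15 ± 0.16 and 0.602). Col5a2 (ENSMUSG00000026042, chr1:45374321-45503282, minus strand), the alpha 2 chain, was at 141, 85.7, 161 and 73.9 TPM in wild-type replicates 1 to 4 and 13.6, 19.5, 141 and 90.6 TPM in Mir140-null replicates 1 to 4. The Mir140-null libraries spanned 10.4-fold and the groups overlapped, with no call (log2 fold change -1.32 ± 0.73, limma adjusted p = 0.239; without replicates 1 and 2, 0.04 ± 0.37 and 0.958). Of the fibril-associated collagens, Col12a1 (ENSMUSG00000032332, chr9:79598991-79718831, minus strand) was at 243, 210.5, 266 and 211 TPM in wild-type replicates 1 to 4 and 74.0, 88.0, 183 and 181 TPM in Mir140-null replicates 1 to 4. Here all 4 Mir140-null libraries were below all 4 wild-type libraries, with replicates 1 and 2 the lowest, and the gene missed the threshold (log2 fold change -0.93 ± 0.31, limma adjusted p = 0.0717; without replicates 1 and 2, -0.34 ± 0.13 and 0.164). Col12a1 was called down in 4 of the 19 alternative settings, among them without Mir140-null replicate 3 (limma adjusted p = 0.0435), without Mir140-null replicate 4 (0.0499) and with median-ratio scaling (0.0478). Col14a1 (ENSMUSG00000022371, chr15:55307750-55520803, plus strand), the second of this class and the lowest of the 10 in wild-type libraries, was at 54.8, 25.9, 54.7 and 34.8 TPM in wild-type replicates 1 to 4 and 4.70, 6.47, 47.0 and 37.4 TPM in Mir140-null replicates 1 to 4. Its groups overlapped and it was not called (log2 fold change -1.31 ± 0.71, limma adjusted p = 0.234; without replicates 1 and 2, 0.05 ± 0.34 and 0.951). With 1 factor of unwanted variation from the residuals, the fourth setting that called Col12a1, limma also called Col1a1, Col1a2, Col3a1, Col5a2 and Col14a1 down, at adjusted p between 0.00715 and 0.0343. With 1 factor from the least changed genes in its place, the log2 fold changes were -0.31 for Col1a1, 0.04 for Col1a2, -0.26 for Col3a1, 0.09 for Col5a1, -0.09 for Col5a2, -0.40 for Col12a1 and -0.10 for Col14a1, at limma adjusted p of 0.0715 to 0.925.

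**Figure D2:**
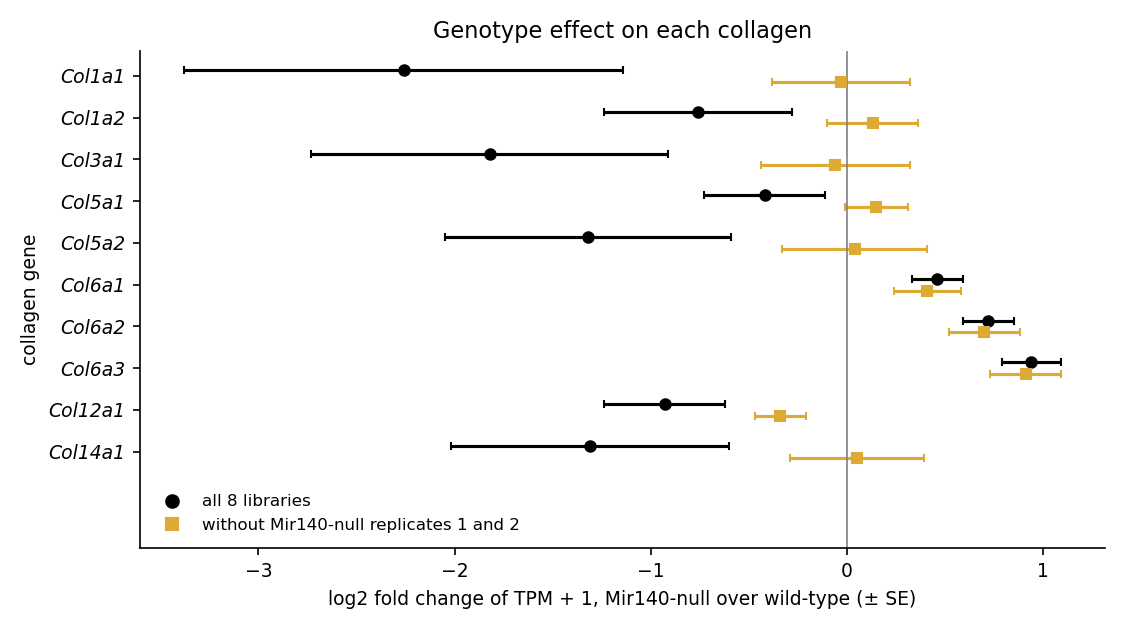
Log2 fold change of TPM + 1, Mir140-null over wild-type, with its standard error for each of the 10 collagen genes, from all 8 libraries (circles) and without Mir140-null replicates 1 and 2 (squares). Without these libraries the collagen VI genes have fold changes of 0.41 to 0.91, none of them called (limma adjusted p 0.0575 to 0.212). Col1a1 goes from -2.26 to -0.03 and Col3a1 from -1.82 to -0.06.

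The order of the collagens by level in Mir140-null libraries turned on replicates 1 and 2. TPM is scaled by transcript length, so levels can be set side by side across genes, and the order is by mean log2 TPM. In wild-type libraries Col1a2, Col3a1 and Col1a1 came first, at 1319 ± 319.8, 1294 ± 452 and 1169 ± 399 TPM (mean ± SD, n = 4), with ranges that overlapped. Col6a1, Col6a3, Col6a2 and Col12a1 followed at 519 ± 79.2, 453 ± 73.7, 335 ± 53.7 and 233 ± 27.1 TPM, then Col5a2 and Col5a1 at 115 ± 42.2 and 105 ± 15.4 TPM, and last Col14a1 at 42.5 ± 14.5 TPM. Among neighbours in this order, ranges were apart between Col1a1 and Col6a1, between Col12a1 and Col5a2, and between Col5a1 and Col14a1, and overlapped elsewhere. Over all 4 Mir140-null libraries Col6a3 came first by mean log2 TPM at 868 ± 114 TPM, followed by Col1a2, Col6a1, Col6a2, Col3a1 and Col1a1 at 917 ± 579.9, 709.9 ± 64.2, 549.9 ± 44.7, 665 ± 702 and 581 ± 638 TPM, and only the ranges of Col6a1 and Col6a2 were apart among neighbours. In Mir140-null replicates 3 and 4 alone, Col1a2, Col3a1 and Col1a1 came first as in wild-type libraries, followed by Col6a3, Col6a1 and Col6a2, with Col6a3 still ahead of Col6a1 and their ranges overlapping. The 3 collagen VI genes summed to 1035, 1528, 1295 and 1369 TPM in wild-type replicates 1 to 4 and to 2333, 2038, 1863 and 2279 TPM in Mir140-null replicates 1 to 4, with no overlap. The other 7 summed to 5248, 3095, 5479 and 3290.1 TPM and to 633, 816, 4824 and 3599.5 TPM in the same order, and these sums overlapped. Collagen VI thus made up 16.5, 33.0, 19.1 and 29.4% of the TPM of the 10 genes in wild-type replicates 1 to 4 and 78.7, 71.4, 27.9 and 38.8% in Mir140-null replicates 1 to 4. Mir140-null replicate 3 lay within the wild-type range of this share, and the libraries that stood apart were the highest. By rank among all genes, Col1a1 stood at 96, 179, 100 and 164 in wild-type replicates 1 to 4 and at 2324, 2205, 103 and 155 in Mir140-null replicates 1 to 4. Col6a3 moved the other way, from 349, 250, 310 and 291 in the wild-type libraries to 140, 173, 181 and 145 in the Mir140-null libraries.

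To follow the balance of the chains, 7 ratios between collagen genes were compared by a two-sided exact permutation test over the 70 assignments of the 8 libraries, whose smallest possible p is 0.0286. Within collagen VI, 2 ratios did not overlap between groups. The ratio of Col6a3 to Col6a1, the long over a short chain, was 0.878, 0.905, 0.858 and 0.842 in wild-type replicates 1 to 4 and 1.30, 1.12, 1.21 and 1.25 in Mir140-null replicates 1 to 4. All 4 wild-type libraries had less Col6a3 than Col6a1 and all 4 Mir140-null libraries more (difference of mean log2 ratio 0.49, exact permutation p = 0.0286, adjusted over 7 ratios 0.10). The ratio of the short chains, Col6a1 to Col6a2, was 1.57, 1.53, 1.52 and 1.60 in wild-type replicates 1 to 4 and 1.30, 1.33, 1.25 and 1.28 in Mir140-null replicates 1 to 4. It was lower in each Mir140-null library than in any wild-type library (difference of mean log2 ratio -0.27, exact permutation p = 0.0286, adjusted over 7 ratios 0.10). Both p-values are the smallest this design can give, and neither passes 0.05 after adjustment. Without Mir140-null replicates 1 and 2, the differences were 0.50 (exact permutation p = 0.0667) and -0.29 (exact permutation p = 0.0667), where 0.0667 is the smallest p of 15 assignments.

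The ratios among the fibre collagens overlapped between groups. The ratio of Col1a1 to Col1a2, the chains of type I, was 0.974, 0.783, 0.924 and 0.797 in wild-type replicates 1 to 4 and 0.14, 0.102, 0.915 and 0.650 in Mir140-null replicates 1 to 4. Mir140-null replicates 1 and 2 thus held far less of the alpha 1 than of the alpha 2 transcript, while the other 6 libraries were at 0.65 or above (difference of mean log2 ratio -1.51, exact permutation p = 0.0857, adjusted over 7 ratios 0.20). The ratio of Col3a1 to Col1a1, type III over type I, was 1.01, 1.11, 1.21 and 1.10 in wild-type replicates 1 to 4 and 2.09, 2.08, 1.17 and 1.0 in Mir140-null replicates 1 to 4 (difference of mean log2 ratio 0.44, exact permutation p = 0.286, adjusted over 7 ratios 0.40). Here the same libraries were the highest. For Col5a1 to Col5a2, the chains of type V, the ratio was 0.833, 1.02, 0.737 and 1.32 in wild-type replicates 1 to 4 and 3.68, 2.79, 0.876 and 1.21 in Mir140-null replicates 1 to 4 (difference of mean log2 ratio 0.93, exact permutation p = 0.171, adjusted over 7 ratios 0.30). The ratio of Col14a1 to Col12a1, both fibril-associated, was 0.225, 0.123, 0.206 and 0.165 in wild-type replicates 1 to 4 and 0.0635, 0.0736, 0.256 and 0.207 in Mir140-null replicates 1 to 4 (difference of mean log2 ratio -0.48, exact permutation p = 0.40, adjusted over 7 ratios 0.40). For Col1a1 over Col2a1, the fibre collagen of perichondrium over that of cartilage, it was 0.0251, 0.0129, 0.0310 and 0.0142 in wild-type replicates 1 to 4 and 0.00139, 0.00104, 0.0378 and 0.0188 in Mir140-null replicates 1 to 4 (difference of mean log2 ratio -1.78, exact permutation p = 0.343, adjusted over 7 ratios 0.40). Mir140-null replicate 3 was the highest of the 8 in both of these last ratios, and replicates 1 and 2 the lowest. Over the other 6 libraries, the differences were -0.17 (exact permutation p = 0.40) for Col1a1 over Col1a2, -0.03 (exact permutation p = 0.733) for Col3a1 over Col1a1, 0.11 (exact permutation p = 0.733) for Col5a1 over Col5a2, 0.39 (exact permutation p = 0.333) for Col14a1 over Col12a1 and 0.46 (exact permutation p = 0.467) for Col1a1 over Col2a1.

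**Figure D3:**
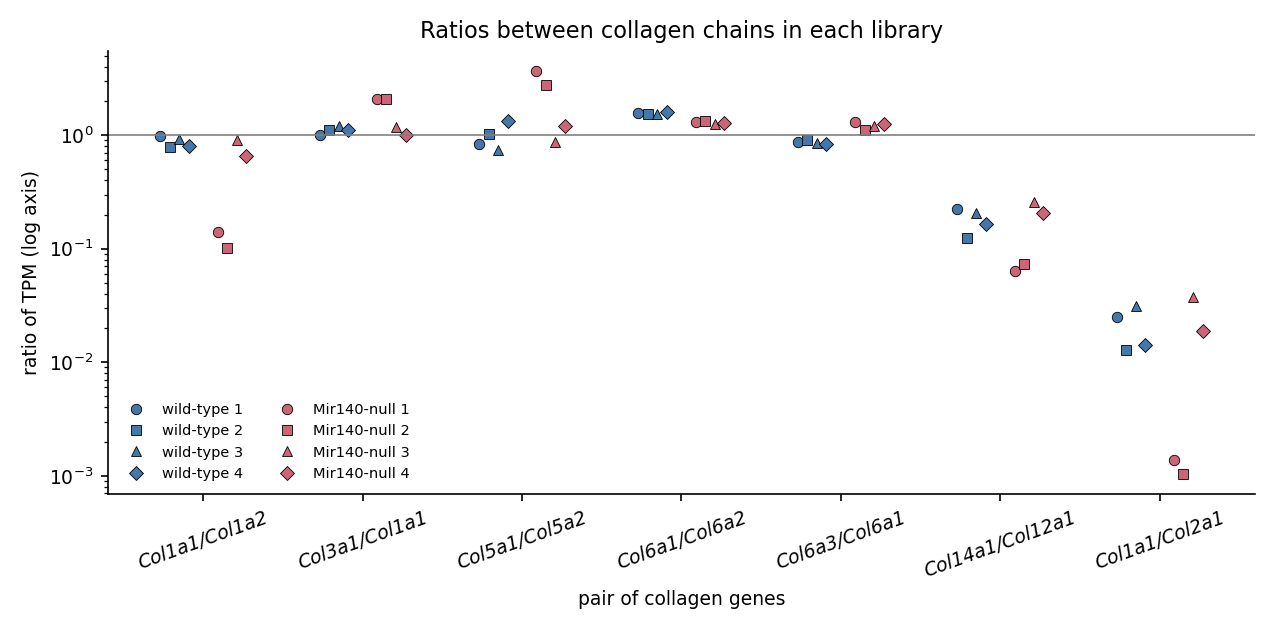
Ratio of TPM (log axis) for 7 pairs of collagen genes in each library, wild-type in blue and Mir140-null in red, with a line at a ratio of 1. Col6a3 over Col6a1 lies between 0.842 and 0.905 in wild-type and between 1.12 and 1.30 in Mir140-null libraries, and Col1a1 over Col1a2 is 0.14 and 0.102 in Mir140-null replicates 1 and 2, 0.650 in replicate 4, also under the wild-type range, and 0.915 in replicate 3, within it.

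Among themselves the collagens fell into 2 sets across all 8 libraries. As a description over 8 libraries that share groups and scaling, the Pearson r of log2(TPM + 1) was 0.96 to 0.99 for the 3 pairs within collagen VI and 0.92 to 1.0 for the 21 pairs among the other 7. It was -0.76 to -0.54 for the 21 pairs that join a collagen VI gene with one of the others. For deviations from the genotype means, the same ranges were 0.94 to 0.98, 0.97 to 1.0 and -0.48 to -0.25. Mir140-null replicates 1 and 2 are the extreme points of the second set, and over the 6 libraries without them r was 0.94 to 0.99 within collagen VI, 0.14 to 0.97 among the other 7 and -0.87 to 0.04 for the pairs that join the sets. Over these 6 libraries r of Col12a1 with the rest of the 7 ran from 0.14 (Col5a1) to 0.56 (Col3a1). Pairs of the 7 without Col12a1 were at 0.83 or above. Col12a1 also had the lowest r with collagen VI, -0.87 to -0.81. The genes outside the 10 whose levels ran closest to the mean standardized level of all 10, among 5754 protein-coding genes with a mean of at least 10 TPM, were Igfbp5 (r = 0.98), which binds insulin-like growth factors, and Dynll1 (0.978), a dynein light chain. They were followed by the water channel gene Aqp1 (0.976), Pcyox1 (0.976) and Antxr1 (0.971), which encodes a receptor for collagens. The mean of all 10 joins 2 sets that ran against each other over the 8 libraries, so a gene close to it need not be close to either set. None of these 5 genes was called by limma, with or without Mir140-null replicates 1 and 2. Igfbp5, the closest, was at 16.7, 9.13, 18.6 and 11.9 TPM in wild-type replicates 1 to 4 and 2.22, 2.16, 26.1 and 24.0 TPM in Mir140-null replicates 1 to 4. Over the 6 libraries without Mir140-null replicates 1 and 2, r was 0.86 for Igfbp5, 0.82 for Dynll1, 0.71 for Aqp1, 0.85 for Pcyox1 and 0.69 for Antxr1, which ranked them 91, 129, 351, 96 and 379 among the 5754.

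Markers of other cells that a rib digest can hold were summed, and some sums were low in the same libraries as the fibre collagens. The fibroblast and perichondrium markers summed to 870.1, 456, 1086 and 455 TPM in wild-type replicates 1 to 4 and to 137, 120.1, 1015 and 724 TPM in Mir140-null replicates 1 to 4. Their most abundant gene, Postn, encodes periostin, a matrix protein of perichondrium and periosteum, and made up 84.7% of the sum. It was at 796, 367, 984 and 375 TPM in wild-type replicates 1 to 4 and 58.9, 54.5, 880.3 and 601 TPM in Mir140-null replicates 1 to 4. Like the fibre collagens, Postn was low in Mir140-null replicates 1 and 2 and not called (log2 fold change -1.49 ± 0.96, limma adjusted p = 0.310; without replicates 1 and 2, 0.34 ± 0.47 and 0.698). Without Postn, the other markers of the list summed to 74.0, 89.0, 102 and 79.6 TPM and to 78.4, 65.6, 135 and 123 TPM. Of 10 tested markers in this list, limma called 2 up, Pdgfra and Twist2, and 0 down, against 10.5% and 6.40% of all tested genes. At an unadjusted p under 0.05, 3 were up and 0 down, against 19.0% and 14.9%. Postn, Thy1, Dpt, Cd34 and Clec3b, 5 of the 10, were lowest in Mir140-null replicates 1 and 2, against 21.1% of all tested genes. The last 4 were named after their values were seen. Without Mir140-null replicates 1 and 2 limma called 0 up (limma adjusted p = 0.0627 for Pdgfra and 0.0621 for Twist2) and 0 down, against 2.08% and 1.22% of all tested genes. At an unadjusted p under 0.05, 5 were then up and 0 down, against 16.5% and 8.44%. The median log2 fold change was -0.16, and 0.70 without Mir140-null replicates 1 and 2. The tendon markers summed to 172, 94.6, 253 and 113 TPM in wild-type replicates 1 to 4 and to 16.4, 20.2, 196 and 143 TPM in Mir140-null replicates 1 to 4. Tnmd, which encodes tenomodulin, led this list. Of the 4 tested tendon markers limma called 0, against 10.5% up and 6.40% down of all tested genes. At an unadjusted p under 0.05, 1 was down, against 14.9%. All 4 were lowest in Mir140-null replicates 1 and 2, against 21.1% of all tested genes. Their median log2 fold change was -0.79, and 0.11 without Mir140-null replicates 1 and 2. The smooth muscle and pericyte markers summed to 93.9, 138, 133 and 114 TPM in wild-type replicates 1 to 4 and to 20.9, 17.9, 92.8 and 49.2 TPM in Mir140-null replicates 1 to 4, with Tagln the most abundant. These sums did not overlap between groups. Of 5 tested markers, limma called 3 down, the contractile genes Acta2, Tagln and Cnn1, against 6.40% of all tested genes. Without Mir140-null replicates 1 and 2, only Cnn1 was still called (limma adjusted p = 0.0317, 0.0559 for Acta2 and 0.226 for Tagln), against 1.22% of all tested genes. All 5 were lowest in these libraries, against 21.1% of all tested genes. The median log2 fold change was -1.52, and -0.81 without Mir140-null replicates 1 and 2. The part of these cell types in the collagen values was not tested.

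**Figure D4:**
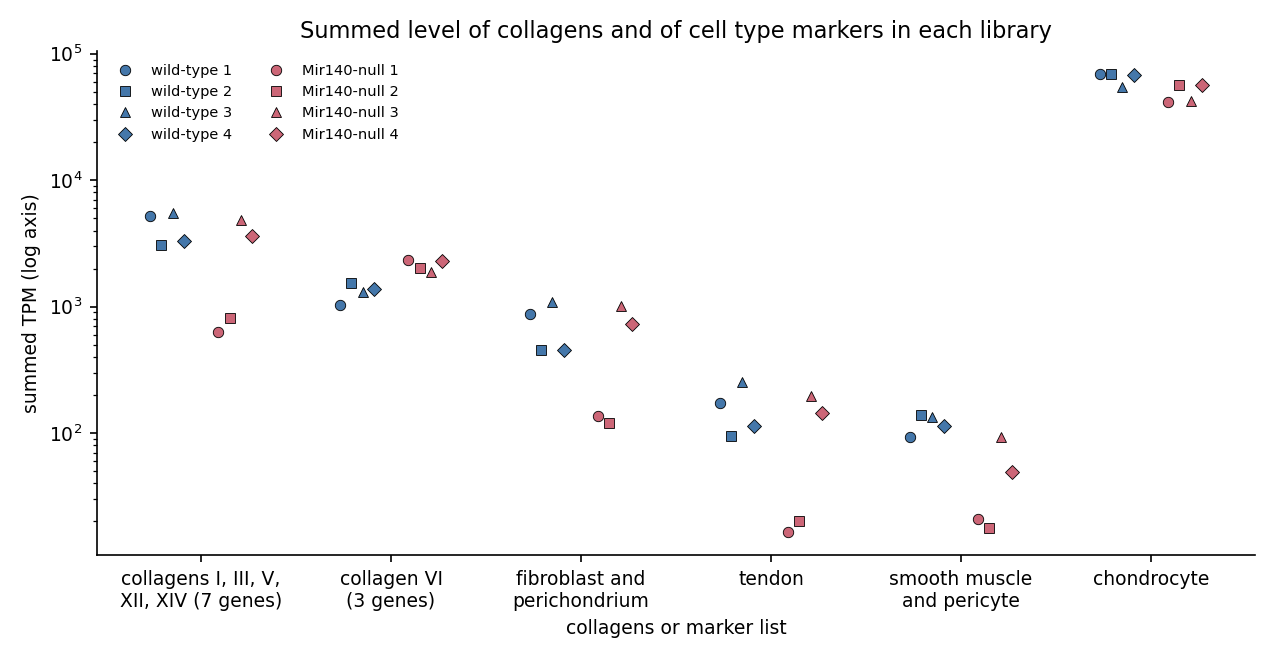
Summed TPM (log axis) of the 7 collagen genes outside type VI, of the 3 collagen VI genes and of 4 lists of cell type markers in each library, wild-type in blue and Mir140-null in red. The sums of the 7 collagens, of fibroblast and perichondrium markers and of tendon markers are lowest in Mir140-null replicates 1 and 2, and the collagen VI sum is higher in all 4 Mir140-null libraries.

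The markers of chondrocytes themselves summed to 69019, 69531, 55043 and 67917 TPM in wild-type replicates 1 to 4 and to 41718, 56829, 42530.4 and 56609 TPM in Mir140-null replicates 1 to 4. Col2a1 made up 86.4% of this sum. Against 10.5% up and 6.40% down of all tested genes, limma called 2 of the 10 markers up, Acan and Ucma, and 1 down, Hapln1. Over 6 libraries, without Mir140-null replicates 1 and 2, none of these 3 was called (limma adjusted p = 0.0741, 0.0637 and 0.0528). The other lists are given in the same order of libraries. Osteoblast markers summed to 122, 155, 192 and 179 TPM and to 174, 94.5, 181 and 200.2 TPM, led by Spp1. Without Spp1, they summed to 24.6, 18.2, 26.7 and 15.1 TPM and to 5.67, 4.64, 22.2 and 17.2 TPM, lowest in Mir140-null replicates 1 and 2. Endothelial markers summed to 6.02, 12.5, 22.8 and 12.7 TPM and to 3.98, 5.26, 28.8 and 15.8 TPM, led by Pecam1, and were also lowest in these libraries. Red blood cell markers, led by Hbb-bs, summed to 704, 646, 1235 and 1854 TPM and to 432, 256, 1725 and 1365 TPM. Again the same libraries were the lowest. Hypertrophic chondrocyte markers summed to 51.6, 194, 90.7 and 118 TPM and to 96.1, 78.8, 86.2 and 91.0 TPM, led by Col10a1. Skeletal muscle markers summed to 103, 76.2, 81.0 and 100.3 TPM and to 36.5, 60.1, 60.4 and 59.2 TPM, led by Tnnt3, and did not overlap between groups. Macrophage markers, led by Cd68, summed to 21.8, 39.6, 32.7 and 31.6 TPM and to 17.3, 16.8, 30.9 and 30.6 TPM. Osteoclast markers summed to 45.2, 28.4, 54.9 and 38.1 TPM and to 28.7, 29.3, 64.5 and 52.3 TPM, led by Ctsk, and adipocyte markers to 27.8, 40.4, 66.5 and 50.4 TPM and to 27.6, 31.0, 76.1 and 51.5 TPM, led by Fabp4. In the 8 lists after that of chondrocytes limma called 1 marker, the lysozyme gene Lyz2 of macrophages, which fell (log2 fold change -0.74 ± 0.17, limma adjusted p = 0.0243; without replicates 1 and 2, -0.50 ± 0.16 and 0.126). Lyz2 reached 0.5 TPM in all 4 wild-type libraries, and among Mir140-null libraries only in replicate 3, at 0.617 TPM. Its place among the tested genes therefore depended on its being higher in wild-type libraries. At an unadjusted p under 0.05, 1 of 4 tested hypertrophic chondrocyte markers was up. Down were 1 of 6 osteoblast, 2 of 4 skeletal muscle and 1 of 3 macrophage markers tested. The other 4 lists had 0 in both directions, over 5 endothelial, 5 red blood cell, 3 osteoclast and 1 adipocyte markers tested. These counts stand against 19.0% up and 14.9% down of all tested genes. Of 8 osteoblast, 8 skeletal muscle, 6 macrophage, 4 osteoclast and 3 adipocyte markers listed, those not tested did not pass the filter. No marker of any list was at 0 in all 8 libraries. Some markers also stand in the lists below, Dpt, Postn and Kera among fibre assembly partners, Scx, Mkx, Sp7 and Twist2 among regulators, Col2a1 and Col10a1 among cartilage collagens, and Mmp13 and Ctsk in collagen breakdown. The part of these cells in the collagen values was not tested.

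Genes that work with these collagens were described in 8 lists, set beside the share of all tested genes called up (10.5%, or 2.08% without Mir140-null replicates 1 and 2) and down (6.40%, or 1.22%) and their median log2 fold change of -0.01, or 0.07 without these libraries. Counts at an unadjusted p under 0.05 stand against 19.0% up and 14.9% down of all tested genes over 8 libraries, and 16.5% and 8.44% over 6. Counts of genes lowest in Mir140-null replicates 1 and 2 stand against 21.1%. Values of named genes below are means ± SD over 4 libraries a group. Of the 8 cartilage collagens, limma called 0 up and 3 down, with 0 up and 4 down at an unadjusted p under 0.05. Their median log2 fold change was -0.46, and -0.42 without Mir140-null replicates 1 and 2. Col11a1, a chain of the type XI collagen inside cartilage fibrils, fell and was at 3110.5 ± 177 TPM for wild-type and 2231 ± 414 TPM for Mir140-null libraries (log2 fold change -0.50 ± 0.14, limma adjusted p = 0.0469; without replicates 1 and 2, -0.44 ± 0.13 and 0.107). Col9a3, of the type IX collagen on the surface of cartilage fibrils, was at 3219.8 ± 254 TPM for wild-type and 2316 ± 273 TPM for Mir140-null libraries (log2 fold change -0.48 ± 0.11, limma adjusted p = 0.0266; without replicates 1 and 2, -0.47 ± 0.11 and 0.0755). Col9a1, another chain of type IX, was at 3239 ± 205 TPM for wild-type and 2419 ± 363 TPM for Mir140-null libraries (log2 fold change -0.43 ± 0.12, limma adjusted p = 0.0467; without replicates 1 and 2, -0.41 ± 0.13 and 0.128). Mir140-null replicates 1 and 2 were the lowest libraries for 0 of the 8. With these 2 libraries left out, limma called 0 up and 0 down (0 and 4 at an unadjusted p under 0.05).

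Of the 21 tested genes among 26 other collagens, limma called 1 up and 0 down, with 4 up and 0 down at an unadjusted p under 0.05. The median log2 fold change was -0.23, and 0.21 without Mir140-null replicates 1 and 2, and 11 of the 21 were lowest in Mir140-null replicates 1 and 2. Col4a5, a chain of basement membrane collagen IV, was at 1.23 ± 0.126 TPM for wild-type and 3.94 ± 0.498 TPM for Mir140-null libraries (log2 fold change 1.14 ± 0.12, limma adjusted p = 0.00402; without replicates 1 and 2, 1.22 ± 0.14 and 0.0228). The most abundant of the list, Col16a1, a fibril-associated collagen, was at 1792 ± 132 TPM for wild-type and 1547 ± 281 TPM for Mir140-null libraries and was not called (log2 fold change -0.23 ± 0.14, limma adjusted p = 0.296; without replicates 1 and 2, -0.09 ± 0.12 and 0.687). Over the 6 remaining libraries, limma called 2 up and 0 down (3 and 0 at an unadjusted p under 0.05), Col4a5 among them and Col8a2, named after its values were seen. Of 30 fibre assembly partners, limma called 2 up and 1 down, with 3 up and 3 down at an unadjusted p under 0.05. Their median log2 fold change was -0.36, and 0.32 without Mir140-null replicates 1 and 2, and 20 of the 30 were lowest in Mir140-null replicates 1 and 2. Emilin1, an elastic fibre glycoprotein gene, was at 57.9, 52.8, 53.9 and 54.0 TPM in wild-type replicates 1 to 4 and 275, 196, 105 and 109 TPM in Mir140-null replicates 1 to 4. Replicates 1 and 2 were the highest here, and all 4 Mir140-null libraries lay above the wild-type range (log2 fold change 1.51 ± 0.30, limma adjusted p = 0.0163; without replicates 1 and 2, 0.96 ± 0.09 and 0.0143). Tgfbi, whose product binds collagen VI filaments, was at 212 ± 40.0 TPM for wild-type and 384 ± 46.8 TPM for Mir140-null libraries (log2 fold change 0.87 ± 0.16, limma adjusted p = 0.0134; without replicates 1 and 2, 0.96 ± 0.20 and 0.0621). Dcn, which encodes decorin, a proteoglycan on collagen fibrils, fell and was at 482 ± 24.7 TPM for wild-type and 350.0 ± 55.8 TPM for Mir140-null libraries (log2 fold change -0.47 ± 0.12, limma adjusted p = 0.0351; without replicates 1 and 2, -0.30 ± 0.10 and 0.147). In the 6-library fit of limma, the calls were 1 up and 0 down (6 and 2 at an unadjusted p under 0.05).

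Collagen is modified in the cell before it is secreted and crosslinked outside it. Of 13 tested genes of propeptide removal and crosslinking, limma called 3 up and 0 down, with 4 up and 1 down at an unadjusted p under 0.05. Their median log2 fold change was 0.02, and 0.44 without Mir140-null replicates 1 and 2. Lox, the oxidase that crosslinks collagen and elastin, was at 27.2, 28.2, 32.1 and 26.3 TPM in wild-type replicates 1 to 4 and 55.0, 48.9, 48.2 and 43.6 TPM in Mir140-null replicates 1 to 4. The groups were fully apart (log2 fold change 0.76 ± 0.11, limma adjusted p = 0.00758; without replicates 1 and 2, 0.67 ± 0.12 and 0.0460). Tll1, a protease that removes C-propeptides, was at 1.68 ± 0.404 TPM for wild-type and 4.32 ± 1.65 TPM for Mir140-null libraries (log2 fold change 0.95 ± 0.22, limma adjusted p = 0.0252; without replicates 1 and 2, 0.68 ± 0.17 and 0.0835). Pcolce2, an enhancer of that cleavage, was at 45.1 ± 4.30 TPM for wild-type and 77.4 ± 13.5 TPM for Mir140-null libraries (log2 fold change 0.75 ± 0.14, limma adjusted p = 0.0137; without replicates 1 and 2, 0.57 ± 0.12 and 0.0595). Of the 13, 5 were lowest in Mir140-null replicates 1 and 2, Bmp1, Adamts3, Pcolce, Loxl1 and Loxl2, named after their values were seen, as are those named for this below. From 6 libraries, limma called 1 up and 0 down (5 and 0 at an unadjusted p under 0.05). Of 19 tested hydroxylation and chaperone genes, limma called 2 up and 2 down, with 2 up and 5 down at an unadjusted p under 0.05. The median log2 fold change was -0.08, and 0.00 without Mir140-null replicates 1 and 2. Plod1, a lysyl hydroxylase, was at 31.1, 29.1, 31.6 and 35.9 TPM in wild-type replicates 1 to 4 and 74.1, 89.6, 81.8 and 87.3 TPM in Mir140-null replicates 1 to 4. The lowest Mir140-null library, at 74.1 TPM, was above the highest wild-type library, at 35.9 TPM (log2 fold change 1.36 ± 0.11, limma adjusted p = 0.00210; without replicates 1 and 2, 1.38 ± 0.12 and 0.0115). Plod3, another lysyl hydroxylase that also adds sugars, was at 76.4 ± 9.59 TPM for wild-type and 122 ± 7.53 TPM for Mir140-null libraries (log2 fold change 0.68 ± 0.11, limma adjusted p = 0.0106; without replicates 1 and 2, 0.69 ± 0.14 and 0.0578). Crtap, a subunit of the prolyl 3-hydroxylase complex, fell and was at 225 ± 15.2 TPM for wild-type and 138 ± 25.8 TPM for Mir140-null libraries (log2 fold change -0.71 ± 0.14, limma adjusted p = 0.0158; without replicates 1 and 2, -0.50 ± 0.11 and 0.0639). P4hb, the beta subunit of prolyl 4-hydroxylase, fell and was at 1076 ± 55.4 TPM for wild-type and 834 ± 51.0 TPM for Mir140-null libraries (log2 fold change -0.37 ± 0.08, limma adjusted p = 0.0245; without replicates 1 and 2, -0.31 ± 0.09 and 0.109). Of the 19, 4 were lowest in these libraries, P4hb, P3h3, Crtap and Ppib. With 6 libraries, limma called 1 up and 0 down (4 and 4 at an unadjusted p under 0.05).

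At the cell surface, limma called 5 of 13 tested collagen receptors up and 1 down, with 6 up and 3 down at an unadjusted p under 0.05. Their median log2 fold change was 0.42, and 0.34 without Mir140-null replicates 1 and 2. Cspg4, which encodes NG2, a proteoglycan that binds collagen VI, was at 38.7, 80.8, 49.6 and 58.3 TPM in wild-type replicates 1 to 4 and 192, 156, 126 and 163 TPM in Mir140-null replicates 1 to 4. All 4 Mir140-null libraries were above the wild-type range (log2 fold change 1.5 ± 0.23, limma adjusted p = 0.00839; without replicates 1 and 2, 1.37 ± 0.29 and 0.0638). Cd44, a receptor for hyaluronan and collagen, was at 93.9 ± 19.9 TPM for wild-type and 219.9 ± 22.3 TPM for Mir140-null libraries (log2 fold change 1.24 ± 0.17, limma adjusted p = 0.00699; without replicates 1 and 2, 1.14 ± 0.23 and 0.0569). Itga2, the alpha 2 integrin chain that binds type I collagen, was at 2.35 ± 0.657 TPM for wild-type and 5.55 ± 1.73 TPM for Mir140-null libraries (log2 fold change 0.96 ± 0.23, limma adjusted p = 0.0277; without replicates 1 and 2, 0.79 ± 0.24 and 0.114). The other receptor genes called up were Itgb1 and Ddr2. Itga10, the alpha 10 chain of a chondrocyte receptor for type II collagen, fell and was at 89.7 ± 8.15 TPM for wild-type and 68.4 ± 4.38 TPM for Mir140-null libraries (log2 fold change -0.39 ± 0.10, limma adjusted p = 0.0351; without replicates 1 and 2, -0.43 ± 0.12 and 0.102). Mir140-null replicates 1 and 2 were lowest for 3 of the 13, Itga1, Itga11 and Antxr1. The fit of limma without the same 2 libraries called 0 up and 0 down (5 and 1 at an unadjusted p under 0.05). Of 12 tested genes of collagen breakdown, limma called 2 up and 1 down, with 5 up and 1 down at an unadjusted p under 0.05. Their median log2 fold change was 0.11, and 0.38 without Mir140-null replicates 1 and 2. Timp1, an inhibitor of matrix metalloproteinases, was at 252 ± 61.4 TPM for wild-type and 582 ± 158 TPM for Mir140-null libraries (log2 fold change 1.20 ± 0.24, limma adjusted p = 0.0171; without replicates 1 and 2, 0.91 ± 0.25 and 0.0993). Mmp1a, an interstitial collagenase gene of low level, was at 0.287 ± 0.0402 TPM for wild-type and 0.812 ± 0.196 TPM for Mir140-null libraries (log2 fold change 0.49 ± 0.10, limma adjusted p = 0.0203; without replicates 1 and 2, 0.43 ± 0.11 and 0.0854). It passed the filter through the Mir140-null libraries alone, with every wild-type library under 0.5 TPM, so its place among the tested genes, and in the count of 2 up, depended on its being higher there. Fap, a protease that cleaves denatured collagen, fell and was at 276 ± 36.0 TPM for wild-type and 138 ± 16.8 TPM for Mir140-null libraries (log2 fold change -1.0 ± 0.13, limma adjusted p = 0.00596; without replicates 1 and 2, -0.94 ± 0.17 and 0.0454). For 1 of the 12, Mmp9, these libraries were lowest. Without those 2 libraries, limma called 2 up and 1 down (4 and 1 at an unadjusted p under 0.05). Those up were Mmp2 and Mmp13, named after their values were seen, and Fap was still down.

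Among 27 tested regulators of fibrous collagen transcription, limma called 7 up and 1 down, with 11 up and 3 down at an unadjusted p under 0.05. Their median log2 fold change was 0.27, and 0.32 without Mir140-null replicates 1 and 2. Creb3l1, a membrane-bound transcription factor that activates type I collagen genes in osteoblasts, was at 8.43, 12.7, 10.3 and 10.3 TPM in wild-type replicates 1 to 4 and 27.4, 23.7, 24.4 and 27.2 TPM in Mir140-null replicates 1 to 4. The Mir140-null libraries lay within a narrow range above all wild-type libraries (log2 fold change 1.23 ± 0.13, limma adjusted p = 0.00431; without replicates 1 and 2, 1.24 ± 0.17 and 0.0322). Tgfb2, a growth factor that raises matrix synthesis, was at 68.3 ± 22.8 TPM for wild-type and 146 ± 25.0 TPM for Mir140-null libraries (log2 fold change 1.13 ± 0.25, limma adjusted p = 0.0233; without replicates 1 and 2, 0.94 ± 0.33 and 0.151). Smad4, the common partner in its signalling, was at 25.1 ± 2.17 TPM for wild-type and 37.2 ± 3.33 TPM for Mir140-null libraries (log2 fold change 0.55 ± 0.11, limma adjusted p = 0.0168; without replicates 1 and 2, 0.46 ± 0.12 and 0.0923). Tgfbr2, Ccn2, Cbfb and Twist2 were the others called up. Egr1, an immediate early transcription factor gene, was at 2152, 1602, 1556 and 1753 TPM in wild-type replicates 1 to 4 and 458, 518, 756 and 759.5 TPM in Mir140-null replicates 1 to 4. It fell in all 4 Mir140-null libraries, most in replicates 1 and 2 (log2 fold change -1.53 ± 0.20, limma adjusted p = 0.00596; without replicates 1 and 2, -1.21 ± 0.15 and 0.0272). Of the 27, 7 were lowest in Mir140-null replicates 1 and 2. Leaving out the same libraries, limma called 1 up and 1 down (11 and 1 at an unadjusted p under 0.05).

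**Figure D5:**
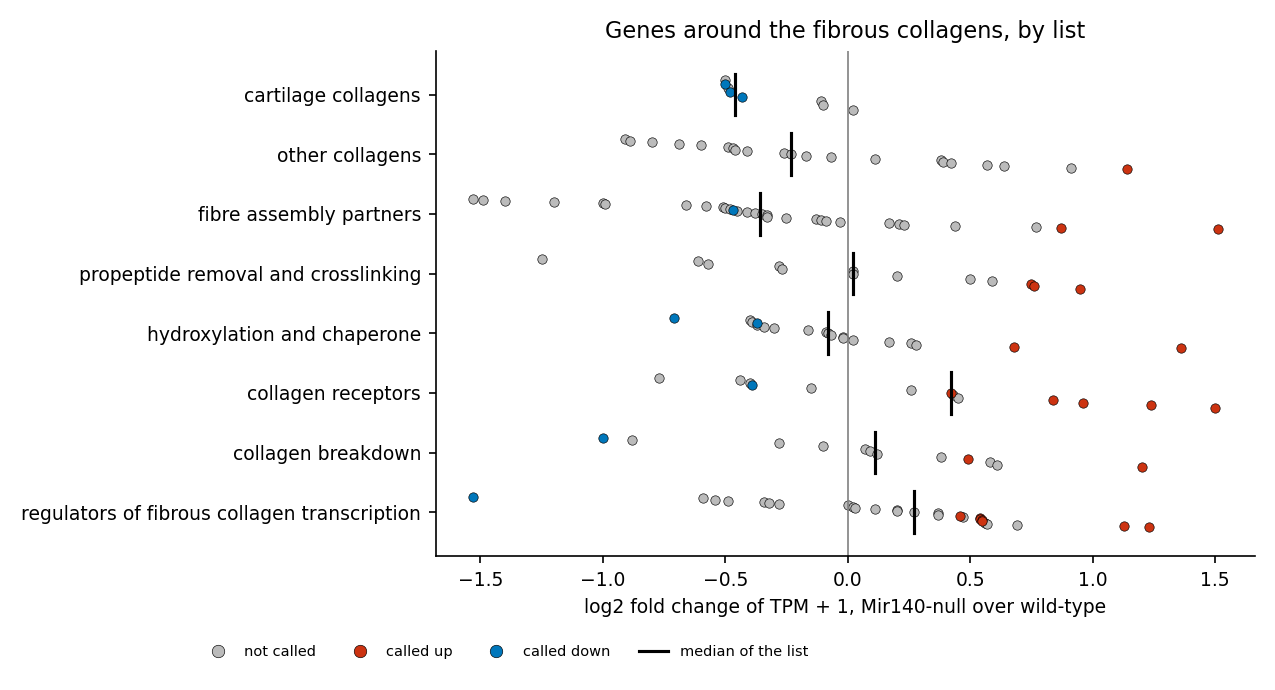
Log2 fold change of TPM + 1, Mir140-null over wild-type, of each tested gene in 8 lists around the collagens, from all 8 libraries, with genes called up in red, called down in blue, others in grey and a bar at each list's median. Medians run from -0.46 for cartilage collagens to 0.42 for collagen receptors, beside -0.01 for all tested genes.

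By position, 4 of the 10 genes lie in pairs. Col5a2 and Col3a1 are neighbours on chromosome 1, on opposite strands and 24614 bases apart, and Col6a1 and Col6a2 are on the same strand of chromosome 10, 85161 bases apart (GENCODE M21 on GRCm38, the build also called mm10). Col6a3 lies on chromosome 1, away from the other collagen VI genes. Gm47302, annotated as a microRNA gene of 141 bases (chr1:45311673-45311813, plus strand), lies wholly inside exon 1 of Col3a1 (chr1:45311538-45311832) on the same strand. It was singled out after its values were seen, 3349, 1669, 4200.3 and 2041 TPM in wild-type replicates 1 to 4 and 77.7, 409, 2879 and 1843 TPM in Mir140-null replicates 1 to 4. The reads of Gm47302 and of Col3a1 cannot be told apart here, and how they were divided between the genes was not tested. Every other gene that overlaps a collagen of the 10 had a mean of 1.17 TPM or less.

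Promoters were taken from RefSeq (build GRCm38.p6) from 250 bases before to 50 bases after RefSeq's start of a transcript, and were matched for 6 of the 10 genes, Col1a2, Col3a1, Col5a1, Col6a1, Col6a2 and Col6a3, with Col1a1, Col5a2, Col12a1 and Col14a1 without a match. That start lies 804 bases after the GENCODE start given above for Col1a2, 124 after it for Col6a1 and 226 after it for 1 of 2 Col6a2 entries, so the Col1a2 window lies inside the GENCODE gene. The promoters were searched on both strands for the word CCAAT, held by 37.4% of 32851 promoters, for the word TATAAA, held by 13.6%, and for the word GGGCGG, held by 35.7%. The promoters of a type I, a type III and both ends of the collagen VI range are shown because these sets differed between libraries, 5′ to 3′ on the gene's strand with any match in capitals. Col1a2 (chr6:4505368-4505667, plus strand) holds 2 CCAAT and 2 GGGCGG matches, and Col3a1 (chr1:45311288-45311587, plus strand) 1 TATAAA match. Col6a1 (chr10:76725995-76726294, minus strand) and Col6a3 (chr1:90843922-90844221, minus strand) hold none of the 3. Both Col6a2 entries hold GGGCGG, at 3 matches (2 of which overlap) and 1 match, and Col5a1 holds 2. A match is a description, not a site or a cause.
Col1a2: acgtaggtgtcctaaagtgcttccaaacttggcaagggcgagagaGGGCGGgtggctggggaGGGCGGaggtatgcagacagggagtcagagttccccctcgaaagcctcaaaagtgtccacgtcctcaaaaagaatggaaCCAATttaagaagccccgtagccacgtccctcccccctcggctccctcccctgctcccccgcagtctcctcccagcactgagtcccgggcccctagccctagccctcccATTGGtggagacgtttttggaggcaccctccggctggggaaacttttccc
Col3a1: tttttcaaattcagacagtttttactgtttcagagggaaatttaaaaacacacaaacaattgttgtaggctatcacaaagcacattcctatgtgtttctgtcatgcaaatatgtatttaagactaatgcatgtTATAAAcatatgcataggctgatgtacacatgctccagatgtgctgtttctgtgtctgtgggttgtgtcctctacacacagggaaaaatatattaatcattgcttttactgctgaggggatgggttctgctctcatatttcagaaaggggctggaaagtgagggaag
Col6a1: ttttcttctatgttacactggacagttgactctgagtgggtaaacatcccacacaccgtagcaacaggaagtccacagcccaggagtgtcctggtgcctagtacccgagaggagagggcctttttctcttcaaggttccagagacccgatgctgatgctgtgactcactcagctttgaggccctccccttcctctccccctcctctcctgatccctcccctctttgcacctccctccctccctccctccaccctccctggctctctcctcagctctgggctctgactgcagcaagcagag
Col6a3: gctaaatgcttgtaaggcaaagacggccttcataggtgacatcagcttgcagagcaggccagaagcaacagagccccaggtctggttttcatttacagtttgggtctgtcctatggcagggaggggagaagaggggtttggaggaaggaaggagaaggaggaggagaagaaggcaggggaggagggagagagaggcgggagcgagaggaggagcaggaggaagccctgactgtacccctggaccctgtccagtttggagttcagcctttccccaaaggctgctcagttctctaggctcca

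The deleted gene gives miR-140-5p, whose mature sequence is not in the table used here and whose seed was not searched, and 2 forms of miR-140-3p that differ by 1 base at the 5′ end and so in the seed, bases 2 to 8, which pairs with sites in 3′UTRs. The RefSeq sequence (GRCm38.p6, chr8:107551288-107551308, plus strand) has the seed of miR-140-3p.2, and miR-140-3p.1 starts 1 base later. Both are shown with the seed in capitals and with the 3′ end of the RefSeq sequence, which need not be that of the sequenced forms.
miR-140-3p.2: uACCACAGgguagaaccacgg
miR-140-3p.1: aCCACAGGguagaaccacgg

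The longest annotated 3′UTR of each collagen gene was searched for the 7 bases that pair with either seed. CTGTGGT, for miR-140-3p.2, occurs in the 3′UTR of 16.1% of 21037 genes, and CCTGTGG, for miR-140-3p.1, in 17.0%. Of the 10 collagens, Col5a1 holds 1 CTGTGGT and 2 CCTGTGG, Col6a1 and Col12a1 each hold 1 CCTGTGG, and the other 7 hold neither. The windows of the collagen genes with a single match are shown with the 7 bases in capitals, at base 166 of 767 in the 3′UTR of Col6a1 and at base 1218 of 2178 in that of Col12a1. Whether any of these words is bound was not tested.
Col6a1: gtgtaatgtccCCTGTGGctcacctgagc
Col12a1: ccttcatcgtgCCTGTGGagccagagagg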

How the data were processed

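RNA-seq of costal chondrocytes from 4 libraries labelled wild-type and 4 labelled Mir140-null was analysed, grouped by the labels. The authors deposited TPM values per Ensembl gene, made with Salmon (version not given in the sources used here) from single-end reads and the mm10 transcriptome after FastQC 0.11.7. The deposited TPM values are scaled to transcript length and library total, and hold neither the RUVSeq factors nor the DESeq2 normalization that the authors applied later. Repeated lines of an identifier were counted once (52325 identifiers, of which 99.8% are in GENCODE M21, which gave symbols, positions and 3′UTRs). The step from transcripts to genes was not stated in the sources used here. TPM keeps no read counts, so no counting error was computed.

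Tested genes reached 0.5 TPM in 4 or more of 8 libraries. The test was limma 3.58.1 (R 4.3.3) on log2(TPM + 1), with genotype as the only term, a mean-variance trend, two-sided tests and Benjamini-Hochberg adjustment over 17177 genes. Fold changes on this scale understate those of low genes. Chain ratios were compared by exact permutation in Python 3.11.15 (SciPy 1.17.1, NumPy 2.4.6, pandas 2.3.3). Figures were drawn in matplotlib 3.10.9. The scripts were tested on simulated data.

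Named genes were the 10 collagens and up to 3 called genes of each list in each direction, by size of fold change. Where fewer than 2 were called, the most abundant gene was named. Also named were Mir140, Wwp2, the most abundant marker of each cell type and 5 genes outside the 10. These 5 ran closest over the libraries to the mean standardized level of all 10 collagens. Other genes, such as Gm47302, were named after their values were seen. Of the listed symbols, Ctage5 and Ctgf were not matched. The members and lists were chosen with earlier results of these data known.

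Alternatives were a pseudocount of 0.1, no filter, a mean of at least 5 TPM, median-ratio scaling, quantile normalization, a total over nuclear protein-coding genes, the replicate number as a block, 1 factor of unwanted variation from residuals or from the least changed genes (leaving out the 5000 of smallest p), sample weights, and leaving out each library. Leaving out Mir140-null replicates 1 and 2 together was added after seeing the data. For ratios, TPM + 1, quantile normalization, the block and each library left out were tried.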

Additional observations from a re-analysis of the deposited data

Results flagged for a closer look

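Each value here is a library whose gap to the nearest of the other 3 in its group took up most of the group's range. Chance alone marks about 1 in 20 groups in this way, and 8 of 148 were marked. Wild-type replicate 3 accounts for 5 of them. Its Col2a1 was at 47893 TPM, with the others of its group at 60174 to 61630.1 TPM, and its chondrocyte markers, of which Col2a1 is the largest part, summed to 55043 TPM, with the others of its group at 67917 to 69531 TPM. In the same library P4hb was at 993 TPM, with the others of its group at 1097 to 1111 TPM, Aqp1 at 19.9 TPM, with the others of its group at 13.0 to 13.5 TPM, and Antxr1 at 21 TPM, with the others of its group at 15.9 to 16.3 TPM. None of the 10 collagens was marked in either group. The rule cannot mark 2 libraries that lie close together and apart from the rest. Mir140-null replicates 1 and 2 lay so for 7 of the 10 collagens, and the rule says nothing of them there. In Mir140-null replicate 4, Tgfbi was at 454 TPM, with the others of its group at 356 to 369 TPM. The skeletal muscle markers of Mir140-null replicate 1 summed to 36.5 TPM, with the others of its group at 59.2 to 60.4 TPM. Mir140 reached 8.86 TPM in what is labelled Mir140-null replicate 2 and was listed at 0 in the other 3 of its group.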

How the results depend on the processing

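Of 190 log2 fold changes of the 10 collagens under alternative settings, 158 kept their direction and their side of the threshold, 17 lost a call, 9 gained one and 6 that were not called changed sign. The median over the 10 collagens did not hold. It was -0.84 in the main fit, -0.02 with 1 factor from the least changed genes and 0.09 without Mir140-null replicates 1 and 2. The number of genes called up was 979 with 1 factor from the least changed genes, 977 without a filter, 671 with the replicate block and 357 without Mir140-null replicates 1 and 2, and 779 to 1553 with 1 library left out. The number called down was 426 with 1 factor from the least changed genes, 2016 with 1 factor from residuals, 605 at a mean of at least 5 TPM, 539 without a filter, 454 with the replicate block and 210 without Mir140-null replicates 1 and 2, and 419 to 1214 with 1 library left out. Of the 10 collagens, 1 was called up with the replicate block, Col6a3 (limma adjusted p was 0.0517 for Col6a2 and 0.0979 for Col6a1), 0 without Mir140-null replicates 1 and 2, and 2 to 3 with 1 library left out. Down were 6 with 1 factor from residuals, 1 with median-ratio scaling and 0 to 1 with 1 library left out. Without Mir140-null replicates 1 and 2, where fewer libraries were tested, the log2 ratio differences were -0.03 for Col3a1 over Col1a1, 0.39 for Col14a1 over Col12a1 and 0.46 for Col1a1 over Col2a1. The other 4 ratios kept their direction in every setting. Their adjusted p says nothing of stability with the block, where the sign-flip test over 4 pairs cannot go below 0.125, or without Mir140-null replicates 1 and 2, where p cannot go below 0.0667. Libraries with the same replicate number did not deviate together (r of 0.03, 0.02, 0.07 and -0.01 for numbers 1 to 4 over tested genes), and a best match with its own number was seen for 2 of 8 libraries, so the numbers were not taken as pairs. The cause of these changes was not tested. Since the depth of each library is unknown, what it limits could not be computed.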
